A study of Mus musculus with 72 samples.

Results

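Early secondary ovarian follicles of the mouse were cultured for 24 h with FSH21 at 10 ng/ml and compared with follicles cultured for the same time without hormone. FSH21 is the hypoglycosylated form of follicle-stimulating hormone (FSH) and FSH24 its fully glycosylated form. The comparison takes the 3 libraries treated with FSH21 at 10 ng/ml, numbered 2, 3 and 4, and the 3 untreated libraries that carry the same numbers, 6 of the 18 libraries of the series. FSH24 at 10 ng/ml (libraries 2, 3 and 4), FSH21 at 1 ng/ml (libraries 1, 5 and 6) and the untreated libraries 1, 5 and 6 were used only where the effect of FSH21 at 10 ng/ml was set against another form or dose. Follicles of every group, untreated ones included, were kept in α-MEM with GlutaMAX to which serum albumin, fetuin and an insulin-transferrin-selenium supplement had been added. No strain, age or number of follicles per library was given in the sources used here, and the labels do not say which libraries came from different mice or dishes. The p-values therefore reflect variation among these libraries, which may be technical in part.

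FSH binds a receptor carried by granulosa cells, the somatic cells that surround the oocyte, and acts mainly through cyclic AMP and protein kinase A, with a further arm through phosphatidylinositol 3-kinase and AKT. Granulosa cells answer with growth, hormone production and signals to the oocyte, which they reach through thin projections and gap junctions. Secondary follicles have several layers of granulosa cells and no antrum, and theca cells are only beginning to form around them.

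Counts summed to between 17.5 and 22.0 M in the FSH21 libraries and between 21.1 and 22.3 M in the untreated ones (M, mega). On the first principal component, which held 16.9% of the variance over all 18 libraries, the FSH21 libraries lay between −39.8 and −33.1 and the untreated libraries between 5.50 and 18, with untreated library 2 nearest to the treated side. Levels are given as CPM, counts scaled by library total and TMM factor, for libraries 2, 3 and 4 in that order, and means carry the SD over 3 libraries. Both cell types of a follicle were well represented. The 17 granulosa markers summed to between 7994 and 8585 CPM with FSH21 and between 7104 and 8575 CPM in untreated follicles, and the 30 oocyte markers to between 8841 and 9843 CPM with FSH21 and between 9970 and 10400.0 CPM in untreated follicles. No oocyte marker was called and 7 were called lower with the library number as a block, the summed oocyte level did not overlap between the groups, and 28 of the 30 estimates were below 0 with a median of −0.14. Fewer cells of a type and less RNA per cell cannot be told apart in such libraries, and the part of this shift in the results below was not tested. Of the other cell types, the 15 stroma and smooth muscle markers summed to between 3160 and 4396 CPM with FSH21 and between 3384 and 5549.7 CPM in untreated follicles, with none called and a median of −0.26. All 15 stroma estimates were below 0, and with the block 1 stroma marker was called lower. The part of stroma in the results below was not tested. The 12 endothelial markers held 5741 counts in the FSH21 libraries and 7143 in the untreated ones, the 14 immune markers 221 and 249 counts, and the 7 red blood cell genes 29 and 26 counts, with the T cell gene Cd3e and the globin genes Hba-a2 and Hbb-bt at 0 in all 6 libraries.

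FSH21 at 10 ng/ml changed 1906 of 18727 genes tested, which is 10.2%, with 1117 higher (5.96%) and 789 lower (4.21%). With the library number as a block, 2819 of 18727 genes were called, 1579 higher and 1240 lower. Blocked counts of a list are to be read against these numbers. Counts of genes called without the block in the lists below are to be read against the 10.2%. The lists were chosen with earlier results of these data known, so a share above 10.2% is no test of a list. Calls are genes whose adjusted p was under 0.05 in edgeR's quasi-likelihood test, with Benjamini-Hochberg adjustment over all genes tested, and every adjusted p without another name comes from it. Most of the changes were modest: the median absolute log2 fold change of called genes was 0.51, and 226 genes were at least 2-fold higher and 108 at least 2-fold lower. Levels of the groups did not overlap for 5182 genes, or 27.7% of those tested, and for 1882 of the genes called. Of the 1906 calls, 948 (515 higher and 433 lower) were also called without each of the 6 libraries in turn, and the count of all calls was lowest, 1250, without untreated library 4. The count of higher genes was 731 without FSH21 library 4, 742 without untreated library 3 and 666 without untreated library 4. Called genes were longer and more abundant than the genes tested as a whole, with a median exonic length of 4.62 kb for the higher and 4.45 kb for the lower genes against 3.75 kb over all tested, and a median level of 45.5 and 54.4 CPM against 16.5 CPM. The part of count depth in these differences was not tested. Pseudogenes made up 8 of the 1117 higher and 40 of the 789 lower genes, against 1194 of the 18727 genes tested.

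**Figure D1:**
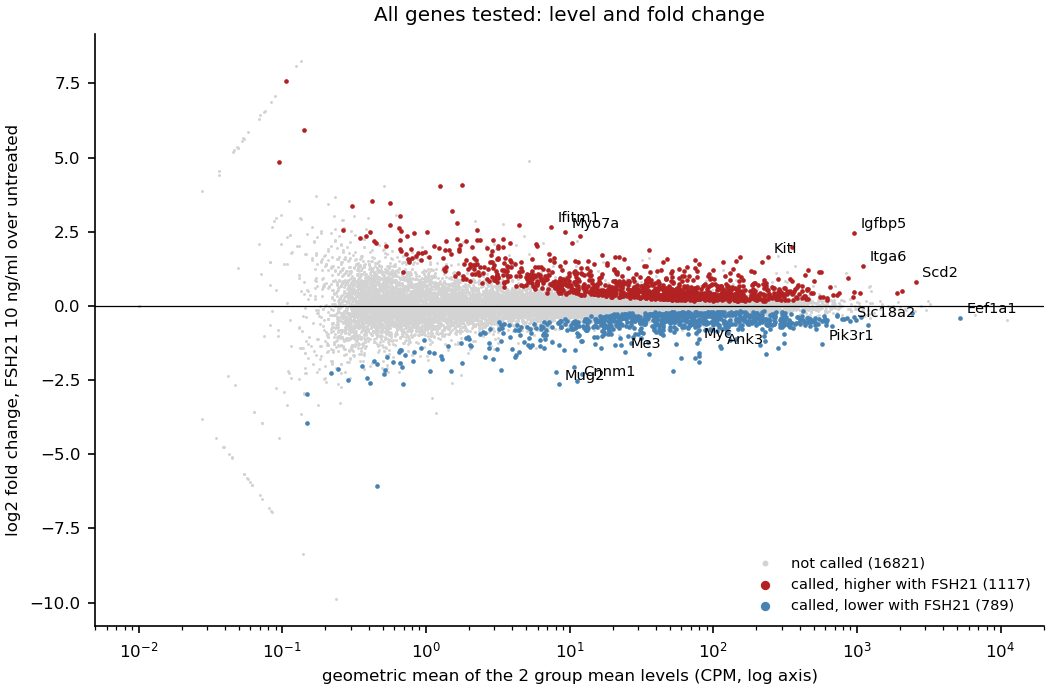
Each point is a gene tested, by the geometric mean of its 2 group mean levels (CPM, log axis, levels under 0.01 CPM set to 0.01) and its log2 fold change of FSH21 at 10 ng/ml over untreated. Called genes lie on both sides of 0, 1117 above and 789 below, and among abundant genes Igfbp5, Itga6 and Scd2 stand above and Pik3r1 and Eef1a1 below.

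The clearest rise by p-value was that of Kitl, the granulosa ligand for the KIT receptor of the oocyte (chromosome 10, 100015630 to 100100416, plus strand), which had 383, 427 and 457 CPM with FSH21, against 121, 144 and 141 CPM in untreated follicles. Kitl rose by 1.64 on the log2 scale (SE 0.08, adjusted p = 9.21e-10). All treated libraries lay far above all untreated ones. Kif5b, the heavy chain of conventional kinesin, had 297, 312 and 318 CPM with FSH21, against 167, 174 and 162 CPM in untreated follicles. Kif5b rose by 0.88 on the log2 scale (SE 0.056, adjusted p = 1.70e-08), with the libraries of each group close together. Itga6, a laminin-binding integrin subunit, had 1871, 1699 and 1751 CPM with FSH21, against 758, 632 and 686 CPM in untreated follicles. Itga6 rose by 1.36 on the log2 scale (SE 0.11, adjusted p = 1.89e-07). Myo7a, a myosin of actin-based protrusions, had 21.9, 20.98 and 23.4 CPM with FSH21, against 4.02, 3.94 and 3.89 CPM in untreated follicles. Myo7a rose by 2.48 on the log2 scale (SE 0.19, adjusted p = 1.43e-07), so a gene at a low level and a gene at a high level moved by amounts well beyond their spread. Further rises with small p-values were those of the cyclin J-like gene Ccnjl (1.70, SE 0.14), the aldehyde dehydrogenase Aldh3b1 (1.35, SE 0.11), the interferon-induced membrane protein gene Ifitm1 (2.67, SE 0.22), the corepressor Cbfa2t3 (1.18, SE 0.10), the ceramide kinase Cerk (0.74, SE 0.064) and the mitochondrial carrier Slc25a30 (0.95, SE 0.086), all as log2 fold changes with SE. Adjusted p-values of these 6 ran to 1.22e-06 for Slc25a30, and reads of Ifitm1 may be shared with close copies of the gene.

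**Figure D2:**
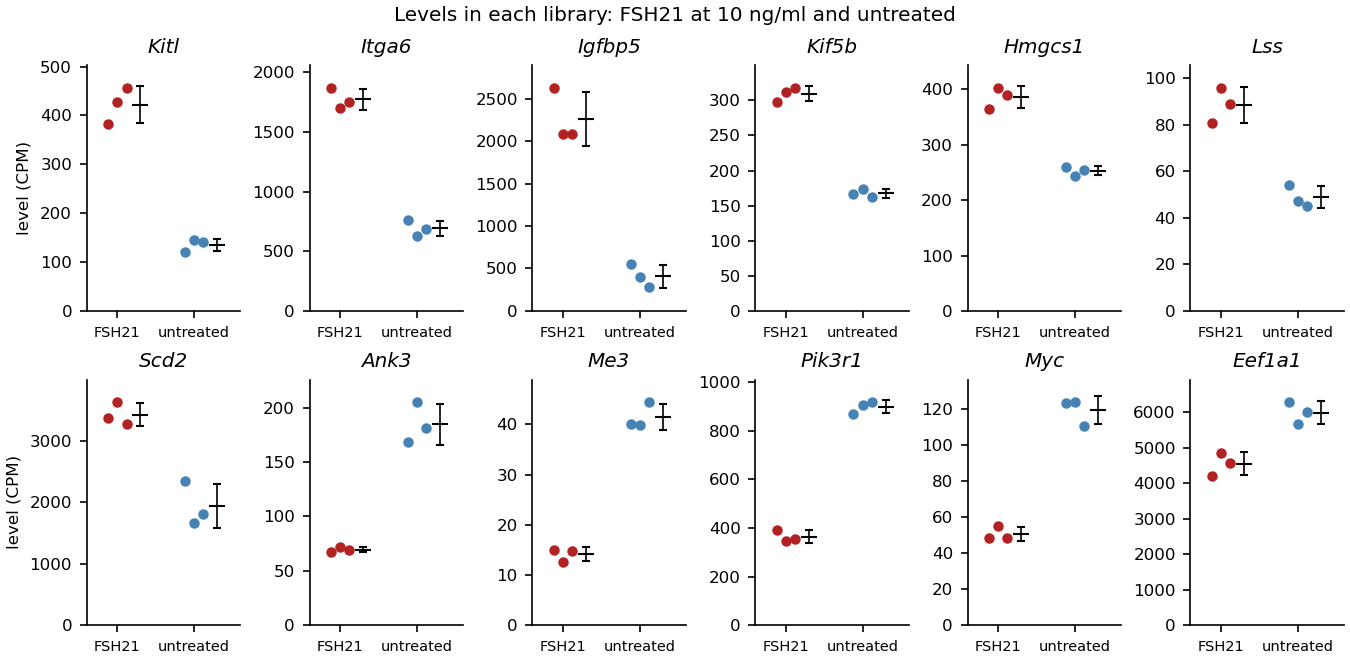
Levels (CPM, axes from 0) of 12 genes in each library, libraries 2, 3 and 4 from left to right, with the group mean and SD as a black bar, FSH21 at 10 ng/ml in red and untreated in blue. In all 12 panels the 3 treated libraries lie entirely above or entirely below the 3 untreated ones.

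Among the falls, Ank3, which encodes the membrane-cytoskeleton adaptor ankyrin G (chromosome 10, 69398773 to 70027438, plus strand), had 67.3, 72.2 and 68.7 CPM with FSH21, against 168, 205 and 181 CPM in untreated follicles. Ank3 fell by 1.41 on the log2 scale (SE 0.083, adjusted p = 1.20e-08). Me3, a mitochondrial malic enzyme, had 15.1, 12.5 and 14.7 CPM with FSH21, against 40.1, 39.8 and 44.5 CPM in untreated follicles. Me3 fell by 1.56 on the log2 scale (SE 0.10, adjusted p = 1.22e-08). Cables1, a CDK-binding adaptor, had 138, 134 and 123 CPM with FSH21, against 441, 352 and 431 CPM in untreated follicles. Cables1 fell by 1.63 on the log2 scale (SE 0.10, adjusted p = 1.22e-08). In these 3 genes every treated library lay far below every untreated one. Pik3r1, the p85 alpha regulatory subunit of phosphatidylinositol 3-kinase (chromosome 13, 101680563 to 101768217, minus strand), had 393, 346 and 355 CPM with FSH21, against 869, 908 and 919 CPM in untreated follicles. Pik3r1 fell by 1.30 on the log2 scale (SE 0.095, adjusted p = 9.41e-08), and the 3 libraries of each group lay close together. Myc, the growth-promoting transcription factor (chromosome 15, 61985391 to 61990374, plus strand), had 48.3, 55.2 and 48.3 CPM with FSH21, against 123, 124 and 111 CPM in untreated follicles. Myc fell by 1.24 on the log2 scale (SE 0.092, adjusted p = 1.23e-07), with less variation within each group than between them. A pair of genes of insulin action also fell: Grb14, an adaptor that binds the insulin receptor (log2 fold change −1.35, SE 0.11), and Tbc1d4, a RAB GTPase-activating protein of insulin-stimulated glucose uptake (−1.21, SE 0.10). The remaining falls with the smallest p-values were those of Rassf2, a Ras-association protein (−1.31, SE 0.084), Usp6nl, a GTPase-activating protein for RAB5 (−0.78, SE 0.051), the cyclin M family gene Cnnm1 (−2.52, SE 0.16), Spsb1, a substrate receptor of ubiquitin ligases (−1.18, SE 0.081), and Sgpp2, a sphingosine phosphate phosphatase (−2.05, SE 0.16).

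Ranked by the difference in mean level, the largest rise was that of Igfbp5, which binds insulin-like growth factors, with 2631, 2082 and 2079.7 CPM with FSH21, against 547, 395 and 281 CPM in untreated follicles (log2 fold change 2.47, SE 0.38, adjusted p = 0.000866). Scd2, a desaturase that makes monounsaturated fatty acids, had 3364, 3629 and 3269.9 CPM with FSH21, against 2351, 1668 and 1799 CPM in untreated follicles. Scd2 rose by 0.82 on the log2 scale (SE 0.13, adjusted p = 0.000299). Igfbp5 thus differed several-fold and Scd2 by less than 2-fold, and neither gene's groups overlapped. Thbs1, the matrix glycoprotein thrombospondin 1, had 2479, 2555 and 2335 CPM with FSH21, against 1837, 1743 and 1664 CPM in untreated follicles. Thbs1 rose by 0.49 on the log2 scale (SE 0.075, adjusted p = 0.000253). Pcsk6, a proprotein convertase that activates secreted growth factors, had 1083, 1219 and 1292 CPM with FSH21, against 631, 579.7 and 676 CPM in untreated follicles. Pcsk6 rose by 0.93 on the log2 scale (SE 0.10, adjusted p = 1.21e-05). Smaller rises in level were those of Clu, the secreted chaperone clusterin (2186 ± 153 CPM with FSH21 and 1633 ± 89.2 CPM in untreated follicles, SD, n = 3 each, log2 fold change 0.42), and Col6a1, a collagen VI chain (840.2 ± 169 CPM with FSH21 and 382 ± 60.4 CPM in untreated follicles, log2 fold change 1.14). Inhbb, the activin and inhibin beta B subunit, had 445, 766 and 907 CPM with FSH21, against 222, 132 and 184 CPM in untreated follicles. Inhbb rose by 1.97 on the log2 scale (SE 0.52, adjusted p = 0.0298). The Inhbb groups did not overlap, but its call was lost in subsets, with adjusted p = 0.0766 without FSH21 library 3, 0.102 without FSH21 library 4, 0.0592 without untreated library 2, 0.116 without untreated library 3 and 0.0992 without untreated library 4. The largest loss in level was that of Eef1a1, the translation elongation factor, with 4213, 4858 and 4578 CPM with FSH21, against 6292, 5662 and 6012 CPM in untreated follicles (log2 fold change −0.40, SE 0.079, adjusted p = 0.0027). Ivns1abp, a kelch protein, had 951 ± 87.0 CPM with FSH21 and 1485 ± 102 CPM in untreated follicles (log2 fold change −0.64), Slc18a2, a vesicular monoamine transporter, 753 ± 97.7 CPM with FSH21 and 1075 ± 41.0 CPM in untreated follicles (−0.51), the aldo-keto reductase gene Akr1cl 838 ± 51.7 CPM with FSH21 and 1158 ± 45.7 CPM in untreated follicles (−0.47), and Kazald1, a secreted protein with a Kazal domain, 175 ± 30.2 CPM with FSH21 and 463 ± 41.2 CPM in untreated follicles (−1.41). Eef2, another elongation factor, was called (−0.24, SE 0.062), though not in every subset of libraries (adjusted p = 0.0654 without FSH21 library 2 and 0.0667 without untreated library 4). Summed over all genes called higher, the mean level was 120405 CPM with FSH21 and 83558 CPM in untreated follicles, and summed over those called lower it was 79158 CPM with FSH21 and 111790.1 CPM in untreated follicles.

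Granulosa cells both make cholesterol and take it up, and it is the substrate of all steroid hormones. The cholesterol genes moved together. Of 34 genes of cholesterol synthesis, uptake and control tested, 23 rose and 1 fell. The median log2 fold change was 0.59 against 0.00 over all genes tested, and 21 of the rises were also called without each library in turn. Hmgcs1, a synthase early in cholesterol synthesis, had 364, 403 and 390.4 CPM with FSH21, against 260.3, 244 and 254 CPM in untreated follicles. Hmgcs1 rose by 0.61 on the log2 scale (SE 0.074, adjusted p = 2.70e-05). Sqle, which oxidises squalene, had 126, 147 and 128 CPM with FSH21, against 87.8, 76.8 and 74.6 CPM in untreated follicles. Sqle rose by 0.75 on the log2 scale (SE 0.089, adjusted p = 2.38e-05). Lss, which closes the sterol ring system, had 80.7, 96.1 and 88.9 CPM with FSH21, against 54.1, 47.4 and 45.3 CPM in untreated follicles. Lss rose by 0.86 on the log2 scale (SE 0.082, adjusted p = 2.43e-06). For all of these every treated library was above every untreated one. The later enzymes Cyp51 (114 against 68.4 CPM, log2 fold change 0.73), Msmo1 (134 against 70.0 CPM, 0.93), Hsd17b7 (74.5 against 44.5 CPM, 0.74) and Dhcr7 (79.1 against 41.7 CPM, 0.92) also rose, with the mean of FSH21 given against that of untreated follicles. Srebf2, the transcription factor that drives these genes, had 279.7, 288 and 269 CPM with FSH21, against 199, 174 and 182 CPM in untreated follicles. Srebf2 rose by 0.59 on the log2 scale (SE 0.068, adjusted p = 1.51e-05). Srebf1, its relative that favours fatty acid genes, had 192, 179 and 172 CPM with FSH21, against 138, 107 and 118 CPM in untreated follicles. Srebf1 rose by 0.58 on the log2 scale (SE 0.081, adjusted p = 0.00011), so the levels of the regulators rose as well. Scarb1, the receptor for high-density lipoprotein, had 219.8, 243 and 261 CPM with FSH21, against 150.1, 142 and 146 CPM in untreated follicles. Scarb1 rose by 0.73 on the log2 scale (SE 0.10, adjusted p = 0.000115). The gene that fell was Abcg1, an exporter of cholesterol (−0.71, SE 0.21), and its call was lost in subsets (adjusted p = 0.125 without FSH21 library 2, 0.173 without FSH21 library 4, 0.0689 without untreated library 2 and 0.165 without untreated library 3). The 34 genes summed to between 4763 and 5327 CPM with FSH21 and between 3574 and 3695 CPM in untreated follicles.

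A set of 6 short motifs was looked for on both strands in the 250 bases before the RefSeq start of each gene (GRCm38.p6), and the count is of genes with any window that holds the letters. The CCAAT box was found in 20 of the 23 cholesterol genes with a promoter in the table (87.0%), against 40.4% of 12619 tested genes, 48.4% of the genes called higher and 35.8% of those called lower. The mitosis genes described below had it in 25 of 36 (69.4%) and the ribosomal protein genes in 29.7%. It was in 64.3% of the steroid synthesis genes, 52.6% of the antioxidant genes and 43.9% of the phosphatidylinositol 3-kinase, FOXO and mTOR genes. Ribosome biogenesis genes had it in 29.7%. The E-box CACGTG was present in 6 of the 23 cholesterol genes (26.1%), against 9.55% of tested genes. It was in 9.56% of the genes called higher and 13.1% of those called lower. CACCCCAC, a core of sterol regulatory elements, was in only 2 of the 23 cholesterol genes (8.70%), against 3.36% of tested genes. The cyclic AMP response element TGACGTCA was in 2.51% of the genes called higher and 3.11% of those called lower, against 2.80% of all tested. TGTTTAC, a FOXO site, was in 2.99% of the genes called higher, 3.11% of those called lower and 2.67% of all tested, and CAAGGTCA, an NR5A1 site, in 1.19%, 0.52% and 1.35% in the same order. By list, the FOXO site was in 3 of 36 mitosis genes and 3 of 41 phosphatidylinositol 3-kinase, FOXO and mTOR genes. It was in 1 of 64 ribosomal protein and 1 of 37 ribosome biogenesis genes, and in no cholesterol, steroid synthesis or antioxidant gene. A match is only a run of letters, and its use in these follicles was not measured. The 120 bases before the start are shown for Hmgcs1, Lss, Ube2c and Top2a, which hold CCAAT there, and for the cholesterol gene Dhcr7 and for Kitl, which do not, to show both kinds. The table has 3 windows for Dhcr7, of which the first is printed and another holds CCAAT. For Kitl the RefSeq start lies inside the GENCODE gene span given above, so the stretch printed lies within that span. Capitals mark CCAAT or its reverse complement ATTGG, and each is written 5′ to 3′ on the gene's strand.
Hmgcs1 (chr13:119690231-119690350, plus strand): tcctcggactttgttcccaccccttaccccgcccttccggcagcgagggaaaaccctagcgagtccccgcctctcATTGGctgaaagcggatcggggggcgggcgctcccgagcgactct
Lss (chr10:76531485-76531604, plus strand): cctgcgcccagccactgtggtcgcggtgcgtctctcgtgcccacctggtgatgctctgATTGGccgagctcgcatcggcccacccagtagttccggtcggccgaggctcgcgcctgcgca
Dhcr7 (chr7:143823047-143823166, plus strand): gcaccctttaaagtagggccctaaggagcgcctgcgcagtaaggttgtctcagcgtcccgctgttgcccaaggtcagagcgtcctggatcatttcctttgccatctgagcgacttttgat
Ube2c (chr2:164769809-164769928, plus strand): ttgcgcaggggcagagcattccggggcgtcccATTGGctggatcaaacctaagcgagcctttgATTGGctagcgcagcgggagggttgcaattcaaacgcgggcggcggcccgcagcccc
Top2a (chr11:99024190-99024309, minus strand): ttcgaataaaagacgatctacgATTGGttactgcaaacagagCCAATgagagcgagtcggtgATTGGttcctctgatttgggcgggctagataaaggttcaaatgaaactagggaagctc
Kitl (chr10:100015701-100015820, plus strand): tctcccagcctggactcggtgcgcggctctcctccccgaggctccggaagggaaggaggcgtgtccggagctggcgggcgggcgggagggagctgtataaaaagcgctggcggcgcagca

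Fatty acid synthesis moved in the same direction. Of 25 genes, 12 rose and none fell, with a median of 0.32, and 11 of the rises were called without each library in turn. Fasn, the fatty acid synthase, had 451, 510.1 and 467 CPM with FSH21, against 277, 339 and 304 CPM in untreated follicles. Fasn rose by 0.63 on the log2 scale (SE 0.084, adjusted p = 6.71e-05). Elovl6, which lengthens palmitate, had 93.8, 108 and 109 CPM with FSH21, against 38.0, 46.7 and 40.7 CPM in untreated follicles. Elovl6 rose by 1.31 on the log2 scale (SE 0.13, adjusted p = 5.74e-06). The desaturase Fads2 had 121, 145 and 125 CPM with FSH21, against 74.0, 65.3 and 68.1 CPM in untreated follicles. Fads2 rose by 0.92 on the log2 scale (SE 0.10, adjusted p = 1.91e-05). The groups did not overlap for any of these 3. Acly, which supplies cytosolic acetyl-CoA (0.46, SE 0.10), Scd1 (0.80, SE 0.16), Fads1 (0.54, SE 0.08), Elovl5 (0.32, SE 0.057), Gpam, an acyltransferase of triglyceride synthesis (0.85, SE 0.16), Acsl4, which activates fatty acids (0.43, SE 0.086), and Plin2, a lipid droplet coat protein (0.60, SE 0.072), rose as well. The list summed to between 6393 and 6977 CPM with FSH21 and between 4039 and 4661 CPM in untreated follicles.

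Steroid synthesis genes rose, several of them at low levels. Of 20 genes, 9 rose and 1 fell, with a median of 0.37. Steroid synthesis counts were 11 higher and 2 lower with the block. Star, which moves cholesterol into mitochondria, had 20.4, 27.1 and 20.6 CPM with FSH21, against 7.53, 6.74 and 9.68 CPM in untreated follicles. Star rose by 1.51 on the log2 scale (SE 0.24, adjusted p = 0.000458). Cyp17a1, the enzyme of androgen synthesis that marks theca cells, had 4.58, 3.35 and 6.70 CPM with FSH21, against 1.12, 1.01 and 0.995 CPM in untreated follicles. Cyp17a1 rose by 2.22 on the log2 scale (SE 0.46, adjusted p = 0.00397). Akr1c18, which inactivates progesterone, had 1.45, 1.84 and 2.44 CPM with FSH21, against 0.140, 0.183 and 0.181 CPM in untreated follicles. Akr1c18 rose by 3.46 on the log2 scale (SE 0.55, adjusted p = 0.000389). Untreated levels of Cyp17a1 and Akr1c18 were low, and none of the 3 genes overlapped between the groups. Cyp1b1, which hydroxylates oestrogens, had 111, 117 and 114 CPM with FSH21, against 72.4, 78.3 and 69.3 CPM in untreated follicles. Cyp1b1 rose by 0.64 on the log2 scale (SE 0.064, adjusted p = 3.58e-06). Nr5a1, the transcription factor of steroidogenic genes, had 139, 132 and 146 CPM with FSH21, against 109, 94.6 and 105 CPM in untreated follicles. Nr5a1 rose by 0.43 on the log2 scale (SE 0.085, adjusted p = 0.00236). Cyp19a1, the aromatase that makes oestradiol, had 17.9, 26.1 and 28.5 CPM with FSH21, against 10.6, 5.59 and 11.3 CPM in untreated follicles. Cyp19a1 rose by 1.40 on the log2 scale (SE 0.36, adjusted p = 0.0239), and its call was lost in several subsets (adjusted p = 0.0718 without FSH21 library 3, 0.0874 without FSH21 library 4, 0.0503 without untreated library 2 and 0.0973 without untreated library 3). Cyp11a1, the side-chain cleavage enzyme, had 2.79, 1.79 and 2.15 CPM with FSH21, against 1.26, 1.05 and 0.226 CPM in untreated follicles. Cyp11a1 was not called (log2 fold change 1.40, SE 1.16, adjusted p = 0.558). The gene that fell was Srd5a1, a steroid reductase (−0.81, SE 0.19), called with fewer libraries only in part (adjusted p = 0.0586 without FSH21 library 3). Of the 11 theca markers, 2 were called, Star and Cyp17a1, with a median of −0.0014 over the list. Theca marker counts were 4 higher and none lower with the block.

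Genes of FSH signalling were called in both directions. Fshr, the FSH receptor, had 12.3, 19.9 and 17.6 CPM with FSH21, against 21.4, 24.6 and 28.8 CPM in untreated follicles. Fshr was not called (log2 fold change −0.58, SE 0.26, adjusted p = 0.198), although the groups did not overlap and it was called with the number as a block (adjusted p = 0.000428). Lhcgr, the receptor for luteinising hormone, had 2.96, 2.85 and 4.93 CPM with FSH21, against 1.78, 1.01 and 1.18 CPM in untreated follicles. Lhcgr was not called (log2 fold change 1.44, SE 0.75, adjusted p = 0.288), but it was with the block (adjusted p = 0.0268). Of 38 genes of receptor, cyclic AMP and protein kinase A signalling, 4 rose and 4 fell (21.1%, against 10.2% of all genes tested), and only Gnai3, an inhibitory G protein subunit, kept its call without each library in turn (205, 210.3 and 213 CPM with FSH21, against 174, 158 and 152 CPM in untreated follicles, log2 fold change 0.38, SE 0.059, adjusted p = 0.000337). Signalling gene counts were 7 higher and 7 lower with the block, 2 higher without FSH21 library 2 or 3 or untreated library 3, 1 higher without FSH21 library 4 or untreated library 2 or 4, 2 lower without untreated library 4, 1 lower without FSH21 library 2 and none lower without FSH21 library 4. Of 19 phosphodiesterase genes 4 rose and none fell. Phosphodiesterase counts were 6 higher and 1 lower with the block. Pde4b, which degrades cyclic AMP, had 5.02, 5.19 and 5.36 CPM with FSH21, against 1.68, 1.28 and 1.72 CPM in untreated follicles. Pde4b rose by 1.73 on the log2 scale (SE 0.28, adjusted p = 0.000424). Pde8a had 77.8, 83.2 and 84.4 CPM with FSH21, against 66.8, 59.3 and 60.8 CPM in untreated follicles. Pde8a rose by 0.39 on the log2 scale (SE 0.064, adjusted p = 0.000431). Pde1a had 29.4, 41.4 and 34.1 CPM with FSH21, against 20.3, 24.3 and 22.8 CPM in untreated follicles. Pde1a rose by 0.64 on the log2 scale (SE 0.13, adjusted p = 0.00406), while Pde4d was called (0.98, SE 0.28) but not in all subsets (adjusted p = 0.102 without FSH21 library 2, 0.0553 without FSH21 library 3, 0.0811 without FSH21 library 4, 0.101 without untreated library 2, 0.0515 without untreated library 3 and 0.124 without untreated library 4). Of 36 immediate-early genes 4 rose and 1 fell, and the AP-1 genes Jun (46.3, 46.5 and 36.9 CPM with FSH21, against 28.1, 20.9 and 17.7 CPM in untreated follicles, log2 fold change 0.96, SE 0.20, adjusted p = 0.00619), Jund (0.60, SE 0.10) and Fosl2 (0.62, SE 0.11) held in all subsets. Immediate-early gene counts were 6 higher and 2 lower with the block. The list's median was −0.11, and 13.9% of it was called, against 10.2% of all genes tested.

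Signals between granulosa cells and the oocyte were mixed apart from Kitl. Of 18 genes of that exchange, 1 rose and 2 fell. Exchange gene counts were 3 higher and 2 lower with the block. Kit, the receptor on the oocyte, had 179.5, 151 and 159.7 CPM with FSH21, against 185, 163 and 162 CPM in untreated follicles. Kit was not called (log2 fold change −0.056, SE 0.078, adjusted p = 0.757). The oocyte growth factors Gdf9 (1067 ± 78.4 CPM with FSH21 and 1153 ± 60.4 CPM in untreated follicles, SD, n = 3 each, adjusted p = 0.442) and Bmp15 (417 ± 49.7 CPM with FSH21 and 455 ± 48.4 CPM in untreated follicles, adjusted p = 0.574) were not called either, and the groups overlapped for each of these 3. Nppc, the peptide that holds meiosis, had 11.1 ± 1.46 CPM with FSH21 and 11.5 ± 1.91 CPM in untreated follicles (log2 fold change −0.048, adjusted p = 0.927) and its receptor Npr2 71.0 ± 11.3 CPM with FSH21 and 47.8 ± 7.30 CPM in untreated follicles (0.57, SE 0.21, adjusted p = 0.119). Npr2 was not called, its groups did not overlap and it was called with the block (adjusted p = 0.0242). Impdh2, an enzyme of guanine nucleotide synthesis, fell (−0.51, SE 0.072), as did the Notch ligand Jag1 (−0.50, SE 0.14, adjusted p = 0.107 without FSH21 library 2, 0.0907 without FSH21 library 4, 0.0567 without untreated library 2, 0.0904 without untreated library 3 and 0.0568 without untreated library 4). The gap junction genes Gja1 of granulosa cells (−0.037, SE 0.084, adjusted p = 0.867) and Gja4 of the oocyte (−0.12, SE 0.11, adjusted p = 0.575) overlapped between the groups.

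The inhibin, activin and TGF-beta genes split evenly, with 7 of 47 higher and 7 lower. Inhibin and TGF-beta counts were 8 higher and 12 lower with the block, 4 higher without FSH21 library 4 or untreated library 4, 3 higher without untreated library 3 and 4 lower without FSH21 library 4 or untreated library 3. Smad3, a transducer of activin and TGF-beta, had 512, 542 and 526 CPM with FSH21, against 346, 314 and 334 CPM in untreated follicles. Smad3 rose by 0.67 on the log2 scale (SE 0.065, adjusted p = 3.27e-06). Ltbp1, which stores latent TGF-beta, had 254, 239 and 274 CPM with FSH21, against 168, 131 and 148 CPM in untreated follicles. Ltbp1 rose by 0.78 on the log2 scale (SE 0.15, adjusted p = 0.00321). The type I receptor Tgfbr1 rose by less (0.30, SE 0.066). Bmpr1b, a receptor for BMP15 and related ligands, had 99.8, 85.5 and 94.9 CPM with FSH21, against 128, 130.2 and 122 CPM in untreated follicles. Bmpr1b fell by 0.44 on the log2 scale (SE 0.072, adjusted p = 0.000486), and the activin receptor Acvr2b fell too (−0.62, SE 0.15). Follistatin, Fst, which binds activin, had 69.7, 105 and 101 CPM with FSH21, against 189.7, 158 and 172 CPM in untreated follicles. Fst fell by 0.91 on the log2 scale (SE 0.22, adjusted p = 0.0185), with its call lost in subsets (adjusted p = 0.0766 without FSH21 library 2 and 0.0579 without untreated library 2). Inha (0.052, SE 0.15, adjusted p = 0.901), Inhba (0.22, SE 0.14, adjusted p = 0.407) and Amh, the anti-Müllerian hormone gene (0.25, SE 0.18, adjusted p = 0.479), were not called and overlapped between the groups, unlike the type II receptor of that hormone, Amhr2 (0.42, SE 0.12, adjusted p = 0.14 without FSH21 library 2, 0.0643 without FSH21 library 4, 0.147 without untreated library 3 and 0.0706 without untreated library 4).

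Granulosa markers moved in both directions: 6 of 17 rose and 4 fell. Foxl2, the transcription factor that holds granulosa identity, had 528, 559 and 543 CPM with FSH21, against 417, 319 and 369.6 CPM in untreated follicles. Foxl2 rose by 0.56 on the log2 scale (SE 0.095, adjusted p = 0.000636). Gata4 had 501, 482 and 497 CPM with FSH21, against 364, 329.8 and 358 CPM in untreated follicles. Gata4 rose by 0.49 on the log2 scale (SE 0.066, adjusted p = 7.08e-05). Gatm, an enzyme of creatine synthesis, rose as well (0.89, SE 0.19). Esr2, the oestrogen receptor beta, had 109.7, 124 and 127 CPM with FSH21, against 174, 196 and 210.3 CPM in untreated follicles. Esr2 fell by 0.69 on the log2 scale (SE 0.072, adjusted p = 5.74e-06). Bex4 had 53.9, 63.5 and 58.1 CPM with FSH21, against 111, 103 and 105 CPM in untreated follicles. Bex4 fell by 0.86 on the log2 scale (SE 0.11, adjusted p = 4.76e-05). Among 46 transcription factors of granulosa cells and the nuclear receptor family, 8 rose and 5 fell, including Gata6 (0.49, SE 0.08) and Runx1 (0.84, SE 0.12) on the higher side and the clock repressor Nr1d1 (−0.55, SE 0.084) on the lower. Transcription factor counts were 9 higher and 8 lower with the block and 3 lower without FSH21 library 4. Of 20 clock genes, 2 rose and 4 fell, and apart from Nr1d1 only Bhlhe41, a repressor of the clock, held in every subset (17.7, 17.5 and 21.3 CPM with FSH21, against 8.75, 6.88 and 7.64 CPM in untreated follicles, log2 fold change 1.28, SE 0.20, adjusted p = 0.00032). Clock gene counts were 4 higher and 4 lower with the block and 1 lower without FSH21 library 3 or 4.

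In the insulin-like growth factor group, 3 of 17 genes rose and 2 fell. Pappa, the protease that frees the growth factor from its binding proteins, had 4.63, 8.77 and 7.33 CPM with FSH21, against 1.64, 2.06 and 1.49 CPM in untreated follicles. Pappa rose by 2.00 on the log2 scale (SE 0.32, adjusted p = 0.000377), beside the rise of Igfbp5. Igf1, the ligand itself, had 157, 178 and 167 CPM with FSH21, against 304, 327 and 296 CPM in untreated follicles. Igf1 fell by 0.88 on the log2 scale (SE 0.087, adjusted p = 3.27e-06). Irs2, a docking protein of the insulin receptor, had 21.5, 24.6 and 18.8 CPM with FSH21, against 37.3, 48.3 and 39.3 CPM in untreated follicles. Irs2 fell by 0.95 on the log2 scale (SE 0.14, adjusted p = 0.000181). The ligand and the docking protein were thus lower in all 3 treated libraries than in any untreated one. Of 48 genes of phosphatidylinositol 3-kinase, FOXO and mTOR signalling, 6 rose and 7 fell. Foxo1, the factor that AKT keeps out of the nucleus, had 379, 317 and 383 CPM with FSH21, against 539.8, 532 and 517 CPM in untreated follicles. Foxo1 fell by 0.56 on the log2 scale (SE 0.12, adjusted p = 0.00645). Foxo6 had 32.9, 31.4 and 30.9 CPM with FSH21, against 14.3, 14.6 and 13.8 CPM in untreated follicles. Foxo6 rose by 1.16 on the log2 scale (SE 0.14, adjusted p = 2.38e-05), so 2 members of one family went opposite ways. Other genes of the list that fell were Pik3ip1 at 30.9 ± 2.73 CPM with FSH21 and 58.1 ± 6.22 CPM in untreated follicles (−0.91), Klf15 at 1.42 ± 0.172 CPM with FSH21 and 4.74 ± 0.884 CPM in untreated follicles (−1.73) and Txnip, a brake of glucose uptake, at 339.9 ± 23.4 CPM with FSH21 and 441 ± 33.2 CPM in untreated follicles (−0.37). Ddit4, an inhibitor of mTOR complex 1, rose (118, 146 and 141 CPM with FSH21, against 62.4, 62.6 and 67.7 CPM in untreated follicles, log2 fold change 1.07, SE 0.14, adjusted p = 0.000103), as did Sesn3 (0.68, SE 0.11), Pik3r3 (0.63, SE 0.10) and Ddit4l (0.39, SE 0.074). The list summed to between 4201 and 4283 CPM with FSH21 and between 4821 and 4869 CPM in untreated follicles.

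Genes of the integrated stress response and of serine metabolism rose in part, 8 of 46 against 2 lower, with a median of 0.18 and 5 higher without FSH21 library 3. Sesn2, a leucine sensor, had 44.4, 46.2 and 41.0 CPM with FSH21, against 26.9, 27.3 and 28.1 CPM in untreated follicles. Sesn2 rose by 0.68 on the log2 scale (SE 0.094, adjusted p = 0.000103). Trib3, a pseudokinase target of ATF4, had 6.36, 8.45 and 6.23 CPM with FSH21, against 3.28, 2.43 and 3.53 CPM in untreated follicles. Trib3 rose by 1.19 on the log2 scale (SE 0.27, adjusted p = 0.00736). The alanyl-tRNA synthetase Aars (0.47, SE 0.067) and Pck2 (0.40, SE 0.067) rose by less, and Mthfd1 of folate metabolism fell (−0.36, SE 0.063). Of 30 amino acid transporters 4 rose and 2 fell, the rises among them those of Slc43a2 (24.5, 17.8 and 19.2 CPM with FSH21, against 11.7, 8.98 and 8.86 CPM in untreated follicles, log2 fold change 1.06, SE 0.14, adjusted p = 7.18e-05), Slc1a4 (0.76, SE 0.15) and Slc7a8 (0.37, SE 0.076). Transporter counts were 5 higher and 6 lower with the block, and 5 lower with DESeq2. Slc38a3, a glutamine transporter, fell (3.52, 2.800 and 4.88 CPM with FSH21, against 20.9, 16.2 and 15.5 CPM in untreated follicles, log2 fold change −2.23, SE 0.44, adjusted p = 0.00494). Slc6a15 fell (−1.25, SE 0.32) with a call lost in subsets (adjusted p = 0.051 without FSH21 library 2, 0.0873 without FSH21 library 3, 0.0823 without FSH21 library 4 and 0.0901 without untreated library 2).

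Glutathione transferases and antioxidant genes rose in number, 15 of 44 against 2 lower, with a median of 0.22. Of these 17 calls, 8 held without each library in turn. Antioxidant gene counts were 19 higher and 1 lower with the block, 9 higher without FSH21 library 2 or untreated library 4 and 8 higher without untreated library 3. The mu class led. Gstm1 had 724, 666 and 621 CPM with FSH21, against 398, 355 and 376 CPM in untreated follicles. Gstm1 rose by 0.83 on the log2 scale (SE 0.10, adjusted p = 2.48e-05). Gstm2 had 889, 754 and 792 CPM with FSH21, against 423, 326 and 361 CPM in untreated follicles. Gstm2 rose by 1.13 on the log2 scale (SE 0.14, adjusted p = 4.32e-05). Gstm6 had 76.4, 59.9 and 68.7 CPM with FSH21, against 24.4, 15.7 and 15.6 CPM in untreated follicles. Gstm6 rose by 1.88 on the log2 scale (SE 0.20, adjusted p = 2.48e-05). Gstm7 had 39.3 ± 7.18 CPM with FSH21 and 12.6 ± 2.703 CPM in untreated follicles (1.64), and reads of these near-identical neighbours may be shared. Outside the class, Srxn1, which repairs peroxiredoxins, had 17.3, 17.3 and 14.5 CPM with FSH21, against 10.3, 9.35 and 9.50 CPM in untreated follicles. Srxn1 rose by 0.75 on the log2 scale (SE 0.12, adjusted p = 0.000258). Nfe2l2, the transcription factor that many antioxidant genes follow, had 178, 195 and 182 CPM with FSH21, against 139, 125 and 148 CPM in untreated follicles. Nfe2l2 rose by 0.43 on the log2 scale (SE 0.084, adjusted p = 0.00215). Gsto1 of the omega class fell (−0.70, SE 0.095).

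Genes of mitosis and of DNA replication were counted separately. Of 41 mitosis genes, 19 rose and none fell, all 41 estimates were above 0 and the median was 0.32, whereas of 38 replication genes none rose and 3 fell with a median of −0.06. Mitosis gene counts were 10 higher without FSH21 library 4 and 7 higher without FSH21 library 2 or untreated library 3 or 4. They were 28 higher with the block, 27 against all 6 untreated libraries and 22 with DESeq2. Called shares were 46.3% of the mitosis list and 7.9% of the replication list, against 10.2% of all genes tested. Replication gene counts were 1 higher and 5 lower with the block, 1 lower without untreated library 2 and none lower without FSH21 library 4. Ube2c, the ubiquitin-conjugating enzyme of mitotic exit, had 119.96, 102 and 113 CPM with FSH21, against 74.7, 63.1 and 65.2 CPM in untreated follicles. Ube2c rose by 0.72 on the log2 scale (SE 0.13, adjusted p = 0.00126). Top2a, which untangles sister chromatids, had 392, 319 and 339 CPM with FSH21, against 247, 228 and 227 CPM in untreated follicles. Top2a rose by 0.58 on the log2 scale (SE 0.12, adjusted p = 0.00337). Mki67, the proliferation marker, had 579.7, 511 and 586 CPM with FSH21, against 344, 414 and 367 CPM in untreated follicles. Mki67 rose by 0.58 on the log2 scale (SE 0.12, adjusted p = 0.0056). The treated libraries were above the untreated ones in each. Tpx2, a spindle assembly factor (0.49, SE 0.10), and Kif15 (0.58, SE 0.12) rose too. Cdk1, the kinase of mitotic entry, was called (0.43, SE 0.12) with the call lost in subsets (adjusted p = 0.175 without FSH21 library 2, 0.0665 without FSH21 library 4, 0.167 without untreated library 3 and 0.085 without untreated library 4). Of the replication genes, Mcm6 (−0.34, SE 0.078; adjusted p = 0.0554 without FSH21 library 4), Mcm7 (−0.24, SE 0.066; adjusted p = 0.0575 without FSH21 library 2, 0.092 without FSH21 library 4 and 0.0778 without untreated library 2) and Lig1 (−0.23, SE 0.069; adjusted p = 0.0961 without FSH21 library 2, 0.132 without FSH21 library 4, 0.0932 without untreated library 2, 0.0502 without untreated library 3 and 0.0613 without untreated library 4) fell, each only slightly. Of 35 kinesins, 11 rose and none fell. Kinesin counts were 15 higher and 1 lower with the block, 7 higher without untreated library 3, 6 higher without FSH21 library 2 and 5 higher without untreated library 4. Beside Kif5b and the mitotic motors, the neuronal transport motor Kif1a had 66.5, 89.2 and 69.4 CPM with FSH21, against 34.6, 37.9 and 32.0 CPM in untreated follicles. Kif1a rose by 1.11 on the log2 scale (SE 0.14, adjusted p = 6.94e-05).

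Of 16 D-type cyclin and CDK inhibitor genes 4 rose and 1 fell, and the retinoblastoma relative Rbl1 held in each subset (0.36, SE 0.074). Cyclin and inhibitor counts were 2 higher without FSH21 library 2 or 3 or untreated library 2 and 1 higher without untreated library 3 or 4. Cdkn1a, a CDK inhibitor, was called (0.61, SE 0.18) with the call lost in subsets (adjusted p = 0.192 without FSH21 library 2, 0.0886 without FSH21 library 3, 0.0656 without untreated library 2, 0.0751 without untreated library 3 and 0.197 without untreated library 4). Of 30 genes of the BCL2 family, of caspases and of p53 targets, 4 rose and 1 fell. Cell death gene counts were 6 higher and 2 lower with the block and 2 higher without FSH21 library 2 or 4 or untreated library 4. Bcl2, which protects cells from death, had 39.2, 38.8 and 35.1 CPM with FSH21, against 17.5, 24.3 and 21.5 CPM in untreated follicles. Bcl2 rose by 0.84 on the log2 scale (SE 0.12, adjusted p = 0.000116). Casp8, an initiator caspase, had 30.6, 31.4 and 33.1 CPM with FSH21, against 24.4, 20.2 and 21.9 CPM in untreated follicles. Casp8 rose by 0.52 on the log2 scale (SE 0.10, adjusted p = 0.00153), so a protective and a death-promoting gene both rose. In the MYC network of 13 genes, Mycl fell with Myc (33.9, 40.9 and 50.0 CPM with FSH21, against 155, 137 and 170.3 CPM in untreated follicles, log2 fold change −1.88, SE 0.16, adjusted p = 3.27e-06) and Mlxipl, the glucose-responsive factor ChREBP, rose (40.5, 38.8 and 45.4 CPM with FSH21, against 27.3, 27.8 and 30.1 CPM in untreated follicles, log2 fold change 0.55, SE 0.09, adjusted p = 0.000486).

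The genes that build ribosomes fell together. Of 88 cytosolic ribosomal protein genes 69 fell and none rose, with a median log2 fold change of −0.54, and 56 of the 69 were called without each library in turn. They summed to between 16696 and 19708 CPM with FSH21 and between 24760.0 and 27750.0 CPM in untreated follicles. Rplp0, a protein of the ribosomal stalk, had 455, 568 and 573 CPM with FSH21, against 829, 809 and 906 CPM in untreated follicles. Rplp0 fell by 0.67 on the log2 scale (SE 0.11, adjusted p = 0.000707). Rps20 had 116, 132 and 131 CPM with FSH21, against 203, 190.4 and 202 CPM in untreated follicles. Rps20 fell by 0.66 on the log2 scale (SE 0.078, adjusted p = 2.38e-05). In neither gene did a treated library reach an untreated one. Reads of ribosomal protein genes can be shared with their pseudogenes. Of 43 genes of ribosome biogenesis 19 fell and none rose, with all 43 estimates below 0 and a median of −0.24. Polr1a, the catalytic subunit of RNA polymerase I, had 228, 244 and 239 CPM with FSH21, against 329, 405 and 421 CPM in untreated follicles. Polr1a fell by 0.70 on the log2 scale (SE 0.094, adjusted p = 7.10e-05). Npm1, the nucleolar chaperone nucleophosmin, had 365, 424 and 409 CPM with FSH21, against 585, 562 and 596 CPM in untreated follicles. Npm1 fell by 0.54 on the log2 scale (SE 0.086, adjusted p = 0.000355). Ncl, nucleolin, fell by less (−0.32, SE 0.072), and the count of falls was 12 without FSH21 library 2 and 26 with the block. Of 46 translation factors 13 fell and none rose, with a median of −0.12, and 18 fell with the block. Pabpc1, the poly(A)-binding protein, had 629, 758 and 708 CPM with FSH21, against 919, 944 and 977 CPM in untreated follicles. Pabpc1 fell by 0.44 on the log2 scale (SE 0.07, adjusted p = 0.000374), and Eif4b (−0.34, SE 0.057), Eif3f (−0.45, SE 0.074) and Eef1b2 (−0.64, SE 0.12) fell as well. Genes that host small nucleolar RNAs also fell, with Gas5 at 40.4, 67.3 and 57.0 CPM with FSH21, against 92.6, 114 and 107 CPM in untreated follicles (log2 fold change −0.93, SE 0.18, adjusted p = 0.00319) and Snhg12 at 7.80 ± 1.16 CPM with FSH21 and 13.5 ± 0.647 CPM in untreated follicles (−0.79). The host genes Snhg1 (−0.64) and Snhg17 (−0.65) were called lower too, with calls lost in subsets (adjusted p up to 0.103 and 0.183).

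Few genes of the ribosomes and the respiratory chain of mitochondria were called. The shares were 5.1% of mitochondrial ribosomal and 2.4% of nuclear respiratory chain genes, against 10.2% of all genes tested. Of 78 mitochondrial ribosomal protein genes 1 rose and 3 fell, with a median of −0.01. Mitochondrial ribosome counts were 1 lower without untreated library 4 and none lower without FSH21 library 2, 3 or 4 or untreated library 2 or 3. Of 84 nuclear genes of the respiratory chain none rose and 2 fell, with a median of 0.03, and of the 13 protein genes of the mitochondrial genome none was called, with a median of 0.0006. Respiratory chain counts were 1 higher and 2 lower with the block and none lower without FSH21 library 2 or 3 or untreated library 2, and 1 gene of the mitochondrial genome was lower with the block. Mrps11 was the mitochondrial ribosomal gene that rose (0.42, SE 0.081).

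**Figure D3:**
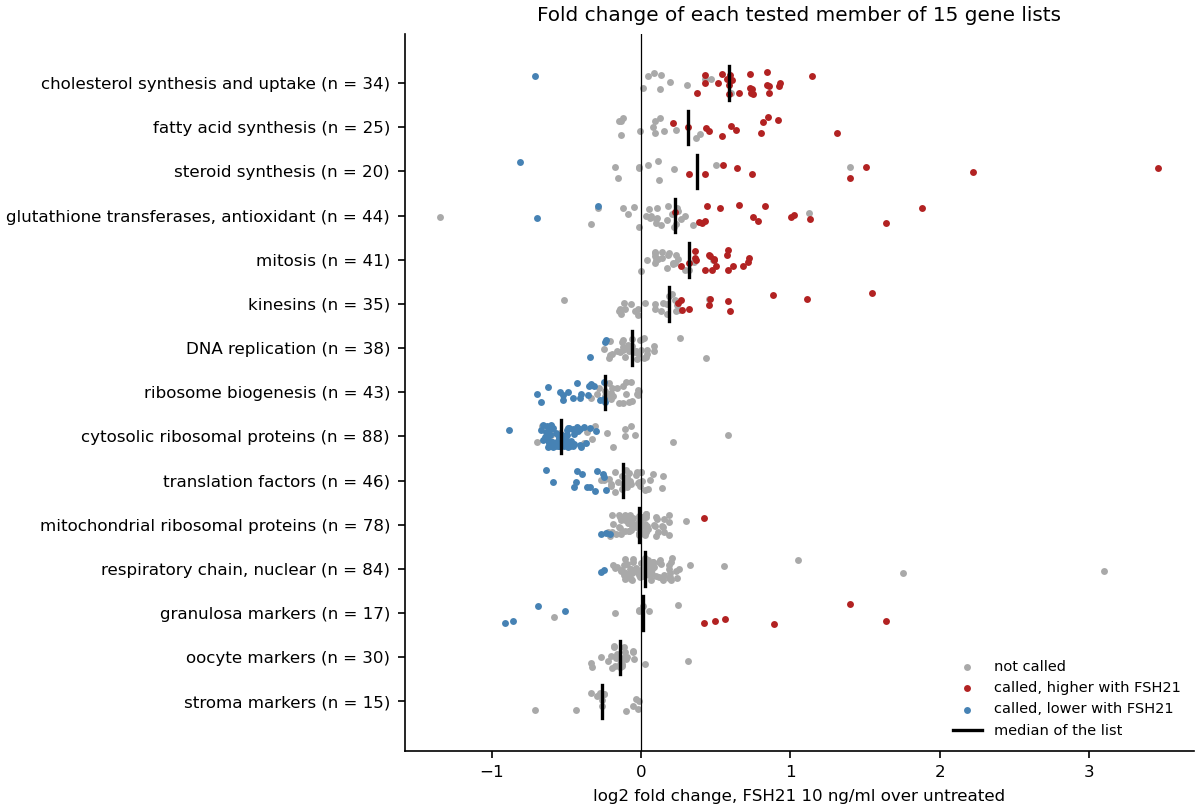
Log2 fold change (FSH21 at 10 ng/ml over untreated) of each tested member of 15 gene lists, with called members in colour and the median as a black line. Cholesterol genes lie almost entirely to the right of 0, with 23 of 34 called higher, and cytosolic ribosomal protein genes to the left, with 69 of 88 called lower.

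**Figure D4:**
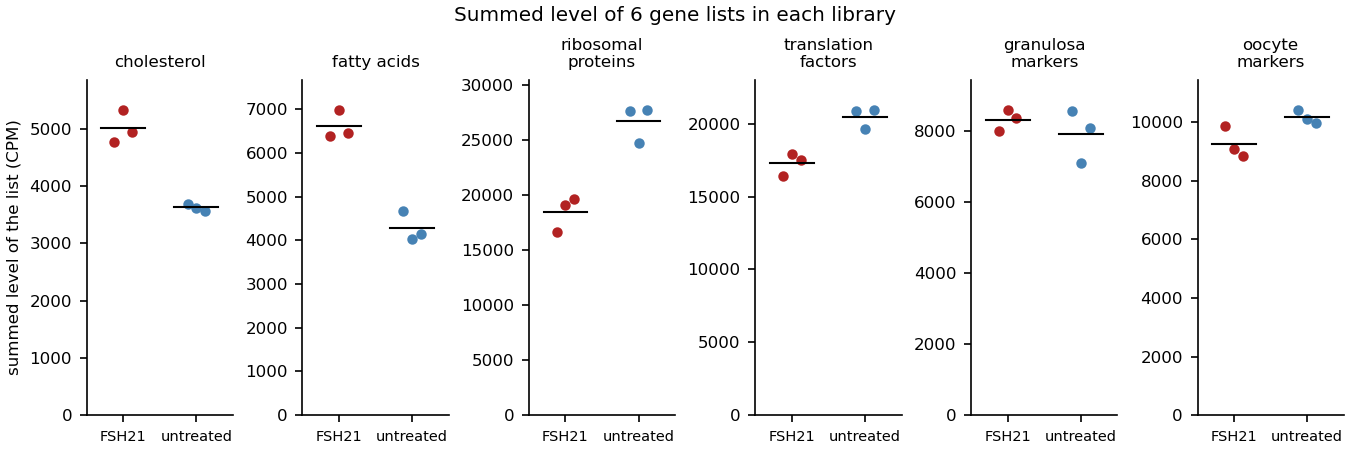
Summed level (CPM, axes from 0) of 6 gene lists in libraries 2, 3 and 4 from left to right, with the group mean as a line. The FSH21 libraries lie above the untreated ones for cholesterol and fatty acid genes and below them for ribosomal proteins, translation factors and oocyte markers, and granulosa markers overlap.

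Adhesion genes were called in both directions. Among 21 integrin subunits only Itga6 rose, and 4 fell. Integrin counts were 2 higher and 4 lower with the block, 2 lower without FSH21 library 4 or untreated library 3 and 1 lower without FSH21 library 2 or untreated library 4. Itgav, the subunit of vitronectin receptors, had 211, 252 and 222 CPM with FSH21, against 345, 420.4 and 365 CPM in untreated follicles. Itgav fell by 0.72 on the log2 scale (SE 0.12, adjusted p = 0.0006). Itga3 (−0.57, SE 0.14; adjusted p = 0.0583 without FSH21 library 2, 0.0677 without FSH21 library 4 and 0.0554 without untreated library 4), Itga8 (−0.66, SE 0.21; adjusted p = 0.173 without FSH21 library 2, 0.0754 without FSH21 library 3, 0.0503 without FSH21 library 4, 0.157 without untreated library 3 and 0.177 without untreated library 4) and Itga9 (−0.50, SE 0.13; adjusted p = 0.0583 without FSH21 library 2, 0.0642 without untreated library 3 and 0.0612 without untreated library 4) fell with calls that single libraries decided. Of 40 cadherin, desmosome and nectin genes 7 rose and 1 fell. Cadherin and desmosome counts were 8 higher and 5 lower with the block, 4 higher without FSH21 library 2 or 4 and 3 higher without untreated library 4. Dsc2, a desmosomal cadherin, had 31.0, 25.4 and 31.5 CPM with FSH21, against 13.6, 10.0 and 10.2 CPM in untreated follicles. Dsc2 rose by 1.38 on the log2 scale (SE 0.14, adjusted p = 5.07e-06), and Nectin2 (0.61, SE 0.087) and the catenin Ctnnd1 (0.43, SE 0.079) rose as well. Cdh13, a cadherin without a cytoplasmic domain, fell at a low level (0.691 ± 0.226 CPM with FSH21 and 2.40 ± 0.485 CPM in untreated follicles, log2 fold change −1.80, SE 0.38). Of 31 connexin and tight junction genes 4 rose and 1 fell, and the one call that held in each subset was the fall of the connexin gene Gjc3, with 0.112, 0 and 0 CPM with FSH21, against 0.842, 0.688 and 0.271 CPM in untreated follicles, a level at which DESeq2 did not call it. Junction gene counts were 4 higher and 3 lower with the block, 2 higher without FSH21 library 2 or 3 and 1 higher without untreated library 2, 3 or 4.

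Of 54 myosin and filopodia genes 8 rose and 3 fell. Myosin and filopodia counts were 10 higher and 6 lower with the block and 5 lower without FSH21 library 2. Beside Myo7a, Myh14, a non-muscle myosin, had 18.1, 19.5 and 19.3 CPM with FSH21, against 6.78, 6.51 and 7.23 CPM in untreated follicles. Myh14 rose by 1.47 on the log2 scale (SE 0.17, adjusted p = 1.27e-05). Myl9, a regulatory light chain, had 157, 196 and 223 CPM with FSH21, against 70.9, 95.5 and 97.9 CPM in untreated follicles. Myl9 rose by 1.12 on the log2 scale (SE 0.13, adjusted p = 4.57e-05). Fscn1, the actin-bundling protein fascin of filopodia, had 364, 442 and 418 CPM with FSH21, against 605, 486 and 566 CPM in untreated follicles. Fscn1 fell by 0.44 on the log2 scale (SE 0.10, adjusted p = 0.00741), and Eps8, an actin capping and bundling protein, fell too (−0.34, SE 0.073). Of 27 cytolinker, keratin and spectrin genes 5 rose and 2 fell, among them Eppk1, epiplakin (16.4, 24.1 and 24.1 CPM with FSH21, against 2.95, 7.47 and 4.61 CPM in untreated follicles, log2 fold change 2.10, SE 0.31, adjusted p = 0.000389), Epb41l1 (1.22, SE 0.14) and Krt8 (69.8, 72.5 and 73.7 CPM with FSH21, against 42.7, 28.6 and 38.9 CPM in untreated follicles, log2 fold change 0.97, SE 0.12, adjusted p = 5.39e-05). Krt8 was the only called gene among 7 surface epithelium markers, which summed to between 85.1 and 86.2 CPM with FSH21 and between 39.0 and 53.2 CPM in untreated follicles. Most of that sum was Krt8 itself, and 2 markers were called with the block. Counts of the other listed markers, summed over libraries, went both ways, and are given with FSH21 first and untreated second. Higher with FSH21 were Krt7 (42 and 6), Krt19 (25 and 16), Msln (6 and 5), Epcam (267 and 167) and Krt18 (469 and 444). Lower were Upk3b (11 and 26), Muc16 (13 and 34), Lgr5 (15 and 27) and Upk1b (0 and 3). The part of surface epithelium in these results was not tested. Of 29 neuronal adhesion genes 2 rose and 2 fell. Neuronal adhesion counts were 7 higher and 2 lower with the block. Without it the called share was 13.8%, against 10.2% of all genes tested. Flrt1 had 34.0, 19.4 and 26.8 CPM with FSH21, against 6.97, 3.85 and 4.79 CPM in untreated follicles. Flrt1 rose by 2.36 on the log2 scale (SE 0.34, adjusted p = 0.000377). Clstn3, calsyntenin 3, had 10.6, 10.6 and 14.9 CPM with FSH21, against 2.95, 2.89 and 2.62 CPM in untreated follicles. Clstn3 rose by 2.09 on the log2 scale (SE 0.20, adjusted p = 2.00e-06). The receptor phosphatase Ptprd had 209.8, 245 and 222 CPM with FSH21, against 336, 519 and 445 CPM in untreated follicles. Ptprd fell by 0.94 on the log2 scale (SE 0.12, adjusted p = 6.33e-05).

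Of 53 genes of collagens, laminins and other matrix proteins 9 rose and 1 fell. Matrix gene counts were 14 higher and 8 lower with the block, 5 higher without untreated library 3 and 9 lower without untreated library 2. Col8a1 had 121, 133 and 133 CPM with FSH21, against 48.7, 41.4 and 41.7 CPM in untreated follicles. Col8a1 rose by 1.56 on the log2 scale (SE 0.17, adjusted p = 4.13e-05), and Col18a1 (0.56, SE 0.094) and the laminin Lamb2 (0.34, SE 0.067) of basement membranes rose by less. Col11a1, a fibrillar collagen, had 167, 227 and 209 CPM with FSH21, against 347, 572 and 513 CPM in untreated follicles. Col11a1 fell by 1.25 on the log2 scale (SE 0.20, adjusted p = 0.000938). Proteases and their inhibitors had 7 of 54 lower and 4 higher. Protease gene counts were 7 higher and 12 lower with the block. Adamts2, which trims procollagen, had 184, 149 and 144 CPM with FSH21, against 331, 311 and 327 CPM in untreated follicles. Adamts2 fell by 1.02 on the log2 scale (SE 0.089, adjusted p = 7.38e-07). Adamts19 had 83.6, 122 and 86.8 CPM with FSH21, against 189, 233 and 209 CPM in untreated follicles. Adamts19 fell by 1.11 on the log2 scale (SE 0.19, adjusted p = 0.00134). Serpine2, an inhibitor of serine proteases, had 671, 713 and 624 CPM with FSH21, against 954, 863 and 932 CPM in untreated follicles. Serpine2 fell by 0.45 on the log2 scale (SE 0.081, adjusted p = 0.000997). Mug2, a macroglobulin protease inhibitor, had 4.35, 3.49 and 2.35 CPM with FSH21, against 17.3, 27.9 and 17.4 CPM in untreated follicles. Mug2 fell by 2.63 on the log2 scale (SE 0.28, adjusted p = 1.73e-05). In these 4 genes no treated library reached the untreated range. Adam10, a sheddase of cell-surface proteins (0.31, SE 0.058), and Mmp11 (0.49, SE 0.075) rose.

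Guidance and growth factor genes split. Of 55 semaphorin, plexin and ephrin genes 7 rose and 5 fell. Guidance gene counts were 13 higher and 8 lower with the block, 4 higher without FSH21 library 2 or untreated library 2 or 3, 3 higher without untreated library 4 and 2 higher without FSH21 library 3. Sema3g, a secreted semaphorin, had 25.1, 24.7 and 23.3 CPM with FSH21, against 125, 95.8 and 114 CPM in untreated follicles. Sema3g fell by 2.20 on the log2 scale (SE 0.19, adjusted p = 5.74e-06). Sema5a had 351, 362 and 371 CPM with FSH21, against 427, 581 and 494 CPM in untreated follicles. Sema5a fell by 0.47 on the log2 scale (SE 0.10, adjusted p = 0.00312). Sema5b, of the same class, had 14.6, 14.1 and 11.7 CPM with FSH21, against 4.68, 6.10 and 6.51 CPM in untreated follicles. Sema5b rose by 1.22 on the log2 scale (SE 0.23, adjusted p = 0.00137), so the pair moved in opposite directions. Of 53 growth factor genes 4 rose and 6 fell. Growth factor counts were 4 higher and 11 lower with the block. Gas6, a ligand of TAM receptors, had 1256, 1176 and 1232 CPM with FSH21, against 944, 841 and 898 CPM in untreated follicles. Gas6 rose by 0.45 on the log2 scale (SE 0.08, adjusted p = 0.000936), and Pdgfd (0.84, SE 0.10) and Tgfa (0.64, SE 0.11) rose, whereas Pdgfb (−0.86, SE 0.081), Pdgfc (−0.50, SE 0.11) and Fgf13 (−0.73, SE 0.14) fell.

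In the Wnt pathway 7 of 44 genes rose and 2 fell. Wnt4, a ligand that ovarian somatic cells need, had 230.2, 261 and 243 CPM with FSH21, against 87.3, 68.7 and 101 CPM in untreated follicles. Wnt4 rose by 1.51 on the log2 scale (SE 0.17, adjusted p = 4.59e-05). Wnt6 had 151, 156 and 152 CPM with FSH21, against 106, 99.9 and 111 CPM in untreated follicles. Wnt6 rose by 0.54 on the log2 scale (SE 0.12, adjusted p = 0.00795). The receptor Fzd4 had 19.6, 22.4 and 20.1 CPM with FSH21, against 8.84, 10.8 and 8.14 CPM in untreated follicles. Fzd4 rose by 1.16 on the log2 scale (SE 0.13, adjusted p = 1.31e-05). Lgr4 rose (0.36, SE 0.064) and Lgr6 fell (−0.82, SE 0.11), both receptors for R-spondins. Of 36 Notch and Hedgehog genes 1 rose and 2 fell, namely the co-receptor Cdon (0.62, SE 0.14) on the higher side and the Notch target Heyl (−0.71, SE 0.14) on the lower, with Jag1 as above. Notch and Hedgehog counts were 1 higher and 5 lower with the block. Of 25 Hippo pathway genes 2 rose and 1 fell, and the kinase Nuak2 held in each subset (1.37, SE 0.29), while the fall of Ccn2, a YAP target, did not (−0.66, SE 0.19, adjusted p = 0.0706 without FSH21 library 2, 0.149 without FSH21 library 4, 0.0992 without untreated library 2 and 0.107 without untreated library 3).

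Of 23 arrestin, arrestin-domain and G protein regulator genes 1 rose and 3 fell. Arrestin and regulator counts were 1 higher and 5 lower with the block. Arrdc3 had 45.0, 49.5 and 37.2 CPM with FSH21, against 156, 137 and 135 CPM in untreated follicles. Arrdc3 fell by 1.70 on the log2 scale (SE 0.15, adjusted p = 3.27e-06). Rgs2, which shortens G protein signals, had 377, 407 and 407 CPM with FSH21, against 695, 615 and 732 CPM in untreated follicles. Rgs2 fell by 0.78 on the log2 scale (SE 0.083, adjusted p = 7.56e-06). In the sphingosine phosphate group of 21 genes, Spns2, the exporter, rose at a low level (5.75, 2.66 and 7.42 CPM with FSH21, against 1.54, 1.100 and 1.45 CPM in untreated follicles, log2 fold change 1.95, SE 0.36, adjusted p = 0.00147), opposite to Sgpp2. Of 64 ion channel and magnesium transport genes 7 rose and 5 fell. Channel counts were 10 higher and 9 lower with the block and 4 higher without untreated library 3. Kcnt1, a sodium-activated potassium channel, had 100.3, 141 and 149 CPM with FSH21, against 55.2, 70.5 and 70.1 CPM in untreated follicles. Kcnt1 rose by 1.00 on the log2 scale (SE 0.15, adjusted p = 0.000558). Kcnq5, another potassium channel, had 7.09, 5.37 and 4.02 CPM with FSH21, against 24.7, 29.6 and 26.5 CPM in untreated follicles. Kcnq5 fell by 2.30 on the log2 scale (SE 0.22, adjusted p = 5.59e-06). Of 20 interferon-response genes 3 rose, with Stat2 at 66.8 ± 3.99 CPM with FSH21 and 45.0 ± 0.370 CPM in untreated follicles (0.57) beside Ifitm1. Interferon-response counts were 5 higher and none lower with the block. Of 38 ubiquitin and autophagy genes 2 rose and 3 fell, among them the receptor Sqstm1 (0.41, SE 0.069) and the lysosomal protease Ctsl (254, 276 and 265 CPM with FSH21, against 442, 402 and 428 CPM in untreated follicles, log2 fold change −0.68, SE 0.074, adjusted p = 9.27e-06). Ubiquitin and autophagy counts were 3 higher and 5 lower with the block. Of 49 chromatin genes 5 rose and 2 fell, with the demethylase Kdm5b (0.49, SE 0.083) and the deacetylases Hdac4 (0.42, SE 0.093) and Hdac5 (−0.59, SE 0.074) holding in each subset. Chromatin gene counts were 3 higher without FSH21 library 3 or 4 or untreated library 2 or 4. Of 29 heat shock genes 6 rose and 1 fell, and Hspd1, the mitochondrial chaperonin, fell (−0.41, SE 0.085). Heat shock counts were 7 higher and 3 lower with the block, 3 higher without FSH21 library 3 or untreated library 3 and 2 higher without FSH21 library 4 or untreated library 4.

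Imprinted genes rose in 7 of 31 cases and fell in none, with a median of 0.23. Imprinted gene counts were 10 higher and 2 lower with the block, 4 higher without FSH21 library 2, 3 higher without untreated library 3, 2 higher without FSH21 library 3 or 4 or untreated library 2 and 1 higher without untreated library 4. Peg3 had 244, 324 and 289 CPM with FSH21, against 136, 198 and 180.1 CPM in untreated follicles (log2 fold change 0.74, SE 0.15, adjusted p = 0.00553) and held in each subset. The non-coding RNAs Meg3 (76.5, 98.6 and 91.9 CPM with FSH21, against 40.5, 40.3 and 33.1 CPM in untreated follicles, log2 fold change 1.23, SE 0.35, adjusted p = 0.0405) and H19 (45.3, 54.4 and 62.6 CPM with FSH21, against 25.8, 20.9 and 27.2 CPM in untreated follicles, log2 fold change 1.14, SE 0.29, adjusted p = 0.0214) had calls that were lost, Meg3 with adjusted p = 0.0693 without FSH21 library 2, 0.118 without FSH21 library 3, 0.105 without FSH21 library 4, 0.0934 without untreated library 2, 0.102 without untreated library 3 and 0.15 without untreated library 4, and H19 with adjusted p = 0.0593 without FSH21 library 3, 0.0838 without FSH21 library 4, 0.0585 without untreated library 2, 0.0954 without untreated library 3 and 0.0589 without untreated library 4. Among 23 nuclear RNAs and host RNAs, with 4 higher and 4 lower, Neat1, the scaffold of paraspeckles, rose (70.2, 87.2 and 87.3 CPM with FSH21, against 38.2, 53.8 and 44.6 CPM in untreated follicles, log2 fold change 0.84, SE 0.17, adjusted p = 0.00524). Nuclear and host RNA counts were 4 higher and 7 lower with the block, 2 higher without FSH21 library 2 or untreated library 3, 1 higher without FSH21 library 3 or 4 or untreated library 2 or 4 and 2 lower without FSH21 library 2 or 4 or untreated library 3. The median of 42 glycolysis and hypoxia genes was 0.55, 36 estimates were above 0 and groups did not overlap for 28 (27.7% of all genes tested did not). In this list 3 were called (7.1%, against 10.2% of all genes tested). Glycolysis counts were 7 higher and none lower with the block and 1 higher without FSH21 library 3 or 4 or untreated library 3, 7 higher with only the 6 libraries fitted and 8 higher against all 6 untreated libraries. Hk1, a hexokinase, had 141, 167 and 158 CPM with FSH21, against 99.3, 101 and 102 CPM in untreated follicles (log2 fold change 0.62, SE 0.092, adjusted p = 0.000177) and held in each subset. The list summed to between 9919 and 12135 CPM with FSH21 and between 5989.7 and 9133 CPM in untreated follicles.

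FSH24 at the same dose was compared with FSH21 directly. In the direct test of FSH21 against FSH24, edgeR's quasi-likelihood test called none of 18727 genes, with 410 genes at an unadjusted p under 0.05 and a smallest adjusted p of 0.755. DESeq2 called 5. Kif5b had 297, 312 and 318 CPM with FSH21 and 263, 268 and 251 CPM with FSH24, and the log2 difference FSH21 minus FSH24 was 0.25, SE 0.056 by edgeR, and DESeq2 gave 0.25 with SE 0.05 (DESeq2 adjusted p = 0.015). Usp6nl had 73.8, 73.1 and 69.9 CPM with FSH21 and 86.0, 84.4 and 85.3 CPM with FSH24, a difference of −0.24, SE 0.051 by edgeR and of −0.24 with SE 0.05 by DESeq2 (DESeq2 adjusted p = 0.0453). The other 3 were Pex5l, Gm9913 and Gm45234, which are named here after their values were seen. Their DESeq2 log2 differences were 1.91 (SE 0.39), 6.33 (SE 1.36) and −24.6 (SE 3.46) in that order, and edgeR called none of them with all libraries. Gm9913 was also called by edgeR without FSH21 library 3. Kitl had 383, 427 and 457 CPM with FSH21 and 369, 375 and 427 CPM with FSH24, and FSH21 minus FSH24 was 0.11, SE 0.077 on the log2 scale. The same difference was 0.044, SE 0.10 for Itga6, 0.34, SE 0.36 for Igfbp5, −0.15, SE 0.083 for Ank3, −0.34, SE 0.094 for Pik3r1, −0.30, SE 0.10 for Me3 and 0.055, SE 0.11 for Rplp0. A p that misses the threshold does not show that the forms act alike. FSH24 and FSH21 were each compared with the same untreated libraries, so their effects share controls. The median of the cholesterol list over untreated was 0.59 with FSH21 and 0.44 with FSH24, that of the mitosis list 0.32 with FSH21 and 0.37 with FSH24, and that of the ribosomal protein list −0.54 with FSH21 and −0.58 with FSH24.

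The dose was compared through the difference of effects, each dose of FSH21 against the untreated libraries of its own numbers. Dose and number set cannot be told apart in the treated libraries. The effect differed between 10 and 1 ng/ml for 51 of 18727 genes (0.272%), 19 more positive and 32 more negative at 10 ng/ml, and for 229 with the block. All 51 were also called against untreated at 10 ng/ml, a comparison that is part of the difference and not independent of it. Single libraries moved this count: it was 23 and 24 without FSH21 library 3 or 4, 27 and 21 without untreated library 3 or 4, 66, 31 and 20 without the 1 ng/ml library 1, 5 or 6, and 29, 24 and 30 without untreated library 1, 5 or 6. Kitl had 233, 249.5 and 228 CPM with FSH21 at 1 ng/ml, against 157, 155 and 160.2 CPM in the untreated libraries 1, 5 and 6 (log2 fold change 0.59, SE 0.078). The Kitl effect at 10 ng/ml exceeded that at 1 ng/ml by 1.05, SE 0.11, adjusted p = 0.000165. Kif5b had 207, 204 and 204 CPM with FSH21 at 1 ng/ml, against 184, 189 and 189 CPM in the untreated libraries 1, 5 and 6 (0.13, SE 0.056), and the difference was 0.75, SE 0.079, adjusted p = 0.000165. The levels of both genes at 1 ng/ml lay above those of their untreated libraries and below those at 10 ng/ml. Cyp1b1, with 82.2, 84.8 and 79.9 CPM with FSH21 at 1 ng/ml, against 87.3, 78.9 and 80.7 CPM in the untreated libraries 1, 5 and 6 (0.0005, SE 0.064), showed overlapping groups at 1 ng/ml and a difference of 0.64, SE 0.091, adjusted p = 0.00251. The other more positive effects by smallest p were those of Srxn1 (0.92, SE 0.16, adjusted p = 0.0212), Cerk (0.51, SE 0.091, adjusted p = 0.0212) and Sesn2 (0.74, SE 0.13, adjusted p = 0.0238).

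Me3 had 35.2, 35.4 and 38.8 CPM with FSH21 at 1 ng/ml, against 48.2, 46.2 and 47.3 CPM in the untreated libraries 1, 5 and 6 (−0.37, SE 0.09), and its effect at 10 ng/ml was lower by −1.18, SE 0.13, adjusted p = 0.000219 as the log2 difference. Cables1 had 291, 296 and 336 CPM with FSH21 at 1 ng/ml, against 409, 406 and 408 CPM in the untreated libraries 1, 5 and 6 (−0.41, SE 0.10, difference −1.22, SE 0.14, adjusted p = 0.000224), and Cnnm1 had 18.4, 13.1 and 18.1 CPM with FSH21 at 1 ng/ml, against 27.1, 24.1 and 23.5 CPM in the untreated libraries 1, 5 and 6 (−0.59, SE 0.15, difference −1.93, SE 0.22, adjusted p = 0.000224). These 3 genes were already lower than in untreated follicles at 1 ng/ml and lower still at 10 ng/ml. Rassf2 (−0.31, SE 0.08 at 1 ng/ml, difference −1.01, SE 0.12, adjusted p = 0.000224), Ank3 (−0.49, SE 0.081, difference −0.93, SE 0.12, adjusted p = 0.000564) and Usp6nl (−0.27, SE 0.05, difference −0.51, SE 0.071, adjusted p = 0.00211) completed the 6 with the smallest p. At 1 ng/ml the cholesterol list had a median of 0.18, the mitosis list 0.20 and the ribosomal protein list −0.22, and at 10 ng/ml the medians of these lists were 0.59, 0.32 and −0.54 in the same order. The difference of these medians was not tested.

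**Figure D5:**
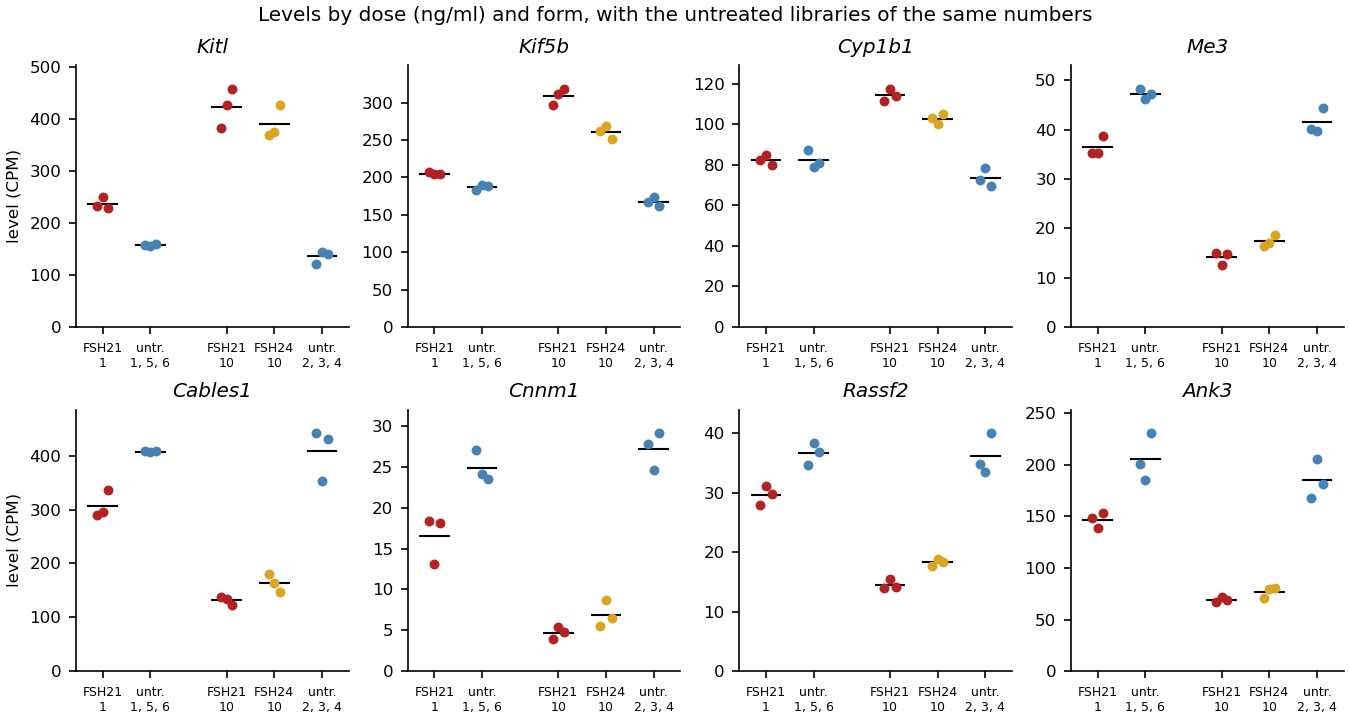
Levels (CPM, axes from 0) of 8 genes in each library for FSH21 at 1 ng/ml beside its untreated libraries 1, 5 and 6, then FSH21 at 10 ng/ml, FSH24 at 10 ng/ml and untreated libraries 2, 3 and 4, with group means as lines. For Kitl and Kif5b the level at 1 ng/ml lies between untreated and 10 ng/ml, Cyp1b1 overlaps its controls at 1 ng/ml, and in all 8 genes the FSH24 libraries lie on the same side of the untreated ones as FSH21 at 10 ng/ml.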

How the data were processed

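Polyadenylated RNA of mouse follicles was sequenced from 50 ng of total RNA per library, per the labels' protocols. The authors deposited expected counts per gene, 1 column per library with the 4 lanes merged, and the column names credit RSEM. STAR 2.7 and mm10 are named in the submitters' processing notes, and the RSEM version, annotation and use of strand are not given in the sources used here. Overlapping antisense genes and near-identical copies are therefore uncertain. Expected counts were rounded to whole numbers. Of 56691 identifiers, 18727 passed filterByExpr (minimum count 10) and were tested with edgeR 4.0.16 (R 4.3.3) as a quasi-likelihood fit with TMM scaling on all 18 libraries in 6 groups, and adjusted p-values follow Benjamini-Hochberg. SEs are the fold change divided by the root of F. The fit was tested on simulated data. The biological coefficient of variation was 0.135, and the variance between replicates of the compared groups was 9.85 to 22.2 times that of Poisson counts. Alternatives were RLE factors, DESeq2 1.42.0, no filter, a minimum count of 50, a replicate block, single libraries left out, only the 6 libraries and all 6 untreated libraries.

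Same-numbered FSH21 and untreated libraries deviated together from their group means (correlations of 0.19, 0.21 and 0.13), so they may be paired. The design set the fit without the block as the main one and the block as an alternative. The SEs and p-values of the main fit therefore leave such a pairing out, and the blocked value stands beside a result that it changes. Gene positions are from GENCODE M21 on GRCm38 and promoters from RefSeq GRCm38.p6. Members and the 58 gene lists were chosen with earlier results of these data known, and lists are described by counts and medians without a test. Genes named are the 12 rises and 12 falls with the smallest p, the 8 of each with the largest difference in level, up to 4 rises and 4 falls per list by p with the members each list is known for, and 6 each way for the dose difference. Some genes that this rule names are not reported here.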

Additional observations from a re-analysis of the deposited data

Results flagged for a closer look

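The effect of FSH21 differed between 10 and 1 ng/ml for 51 genes by the test of the difference itself (edgeR, adjusted over all genes tested), which is 0.272% of the genes. Of the genes with a more positive effect at 10 ng/ml, Kitl differed by 1.05 on the log2 scale (10 ng/ml 1.64, 1 ng/ml 0.59), Kif5b by 0.75 (10 ng/ml 0.88, 1 ng/ml 0.13) and Cyp1b1 by 0.64 (10 ng/ml 0.64, 1 ng/ml 0.0005). Srxn1 differed by 0.92, Sesn2 by 0.74 and Cerk by 0.51. Of those with a more negative effect, Cnnm1 differed by −1.93 (10 ng/ml −2.52, 1 ng/ml −0.59), Cables1 by −1.22 (10 ng/ml −1.63, 1 ng/ml −0.41) and Me3 by −1.18 (10 ng/ml −1.56, 1 ng/ml −0.37). Rassf2 differed by −1.01, Ank3 by −0.93 and Usp6nl by −0.51. Dose and the number set of the libraries cannot be told apart.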

How the results depend on the processing

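No call of FSH21 at 10 ng/ml against untreated reversed under any alternative run. The count of 1906 calls was 1250 to 1630 with a library left out, 2819 with the replicate block and 2898 against all 6 untreated libraries. Higher genes were 666 to 832 with a library left out, 1579 with the block and 1617 against all 6 untreated libraries. Lower genes were 1240 with the block and 1281 against all 6 untreated libraries. FSH21 against FSH24 had no calls, 5 with DESeq2, and 0 to 1 with a library left out. The 51 genes of the dose difference were 159 with DESeq2, 102 without the count filter, 229 with the replicate block and 20 to 66 with a library left out. Among genes that were not called, the log2 fold change changed sign for Cyp11a1 (−0.036 against all 6 untreated libraries), Inha (−0.072 to 0.136 with a library left out) and Nppc (−0.20 to 0.041 with a library left out, 0.018 without untreated library 2, and 0.019 against all 6 untreated libraries). The causes were not tested. The block changed the calls of Fshr, Lhcgr and Npr2 among the genes named with a fold change, and no other call of such a gene. Libraries left out leave 2 in a group, with the spread shared over all groups. Genes of a few counts, such as Gjc3, are limited by depth. Of 57 gene lists with tested members, the higher or the lower count moved by over 1.5 times in 37 with the replicate block, 13 with DESeq2, 17 with only the 6 libraries, 27 against all 6 untreated libraries and 19 to 28 with a library left out, counts of 1 or 2 that moved by 1 gene included.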
